A study of Mus musculus with 12 samples.

Results

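The contractile genes of smooth muscle and the coactivator that drives them were read in mouse embryonic fibroblasts as a set of 9: Tagln, Acta2, Cnn1, Myl9, Actg2, Tpm2, Myh11, Des and Myocd. They were chosen by name for their role in smooth muscle, with earlier results of these data known. Each name had 1 row in a table of read counts for 24207 genes. All 9 passed the filter on low counts, which left 14520 genes for testing.

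Smooth muscle shortens when myosin filaments pull on actin filaments, and the genes for these filaments and their regulators are switched on together. Serum response factor (SRF) binds a short DNA element called the CArG box near many of these genes, and myocardin, the product of Myocd, or the related factors Mkl1 and Mkl2 join SRF there to activate transcription. Cultured fibroblasts carry much of this contractile set, most of all when they take on the stress-fibre-rich myofibroblast state, and they are known to give it up when they are reprogrammed towards pluripotent stem cells. KLF4, one of the reprogramming factors, is known from smooth muscle cells as a repressor of contractile genes.

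RNA was sequenced at day 7 in 12 libraries, in 4 groups of 3. Every group consisted of C57BL/6 embryonic fibroblasts carrying 2 lentiviral constructs: FUW-OSKM, which holds Oct4, Sox2, Klf4 and c-Myc (OSKM) behind a doxycycline-responsive promoter, and FUW-M2rtTA, which makes the doxycycline-dependent activator. Uninduced fibroblasts had a scrambled hairpin and no doxycycline, and the other groups had doxycycline with a scrambled hairpin (induced controls), a hairpin against Trim28, or hairpins against both Trim28 and Setdb1. Trim28 is a corepressor recruited to DNA by zinc finger proteins, and Setdb1 is a histone methyltransferase that works with it. Doxycycline and the factors it induces cannot be told apart in these groups, and no uninduced group had a Trim28 or Setdb1 hairpin. All groups grew in embryonic stem cell medium over irradiated feeder fibroblasts. Removal of the feeders is not mentioned in the labels, and feeders are themselves fibroblasts. Nothing says that the replicates of a group were separate cultures, so the p-values measure no more than the spread among these libraries, which may be technical. In RNA of whole cultures, fewer cells of a type and less RNA per cell cannot be told apart.

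The genes are first shown by role, with positions as the deposited table gives them. Acta2 (ENSMUSG00000035783, chromosome 19, 34241090 to 34255336) encodes alpha smooth muscle actin, the main actin of vascular smooth muscle and of myofibroblast stress fibres. Actg2 (ENSMUSG00000059430, chromosome 6, 83512905 to 83536265) encodes gamma smooth muscle actin, the actin of gut and bladder muscle. Myh11 (ENSMUSG00000018830, chromosome 16, 14194527 to 14291408) encodes the smooth muscle myosin heavy chain, the most lineage-restricted member of the set. Myl9 (ENSMUSG00000067818, chromosome 2, 156775420 to 156781658) encodes a regulatory light chain whose phosphorylation starts contraction. Tagln (ENSMUSG00000032085, chromosome 9, 45929628 to 45936058) encodes transgelin and Cnn1 (ENSMUSG00000001349, chromosome 9, 22099281 to 22109630) calponin, a pair of related actin-binding proteins. Tpm2 (ENSMUSG00000028464, chromosome 4, 43514711 to 43523765) encodes beta-tropomyosin, which lies along actin filaments. Des (ENSMUSG00000026208, chromosome 1, 75360329 to 75368579) encodes desmin, the intermediate filament protein of muscle cells of every kind. Myocd (ENSMUSG00000020542, chromosome 11, 65176561 to 65269989) encodes the coactivator itself. Tagln was the one member whose span overlapped another listed gene, Pcsk7, which held 8553 reads over the 12 libraries against 146704 of Tagln. Acta2 and Actg2 have near-identical actin paralogs, so the split of reads between actin genes is uncertain.

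The stretch just before the start site is shown for 3 members, to set a pair of genes with CArG boxes in that stretch beside one without. The sequences are from RefSeq (build GRCm38.p6), 250 bases long, 5′ to 3′ on the gene's own strand and ending at the base before the annotated start. Capitals mark each CArG box with at most 1 mismatch. The stretches are Acta2 at chr19:34255374-34255623 (minus strand), Myl9 at chr2:156775214-156775463 (plus strand) and Cnn1 at chr9:22099003-22099252 (plus strand).
Acta2: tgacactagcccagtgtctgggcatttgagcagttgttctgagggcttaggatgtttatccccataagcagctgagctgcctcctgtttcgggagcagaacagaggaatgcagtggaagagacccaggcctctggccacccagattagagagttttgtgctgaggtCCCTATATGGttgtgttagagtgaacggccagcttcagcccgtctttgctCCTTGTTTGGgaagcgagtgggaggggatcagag
Myl9: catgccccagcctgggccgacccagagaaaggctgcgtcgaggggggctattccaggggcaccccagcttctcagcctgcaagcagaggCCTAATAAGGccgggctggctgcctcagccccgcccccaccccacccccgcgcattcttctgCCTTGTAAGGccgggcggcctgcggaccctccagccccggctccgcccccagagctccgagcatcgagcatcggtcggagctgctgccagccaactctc
Cnn1: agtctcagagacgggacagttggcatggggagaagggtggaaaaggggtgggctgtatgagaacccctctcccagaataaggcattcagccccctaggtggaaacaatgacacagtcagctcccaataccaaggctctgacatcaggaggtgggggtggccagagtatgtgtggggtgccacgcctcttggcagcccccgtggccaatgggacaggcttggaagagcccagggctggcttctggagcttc
Windows of 300 bases, from 250 before to 50 after the start, were found for 5 of the 9 members by symbol: Des, Myl9, Tpm2, Cnn1 and Acta2. The windows of Acta2 and Myl9 held 2 CArG boxes each. In Myl9 the box at -161 (CCTAATAAGG) had 0 mismatches and the box at -99 (CCTTGTAAGG) had 1, with positions counted from the start site. In Acta2 the boxes at -84 (CCCTATATGG) and -34 (CCTTGTTTGG) had 1 mismatch each, and elements of this kind in the Acta2 promoter are long known to bind SRF. Of all 32851 windows in the RefSeq table, 1.63% held a CArG box without a mismatch and 21.1% held one with at most 1 mismatch. The hexamer CATTCC, a core that TEAD factors bind, was sought on both strands and was found in 1 of the 5 windows, that of Acta2, and in 14.7% of all windows. The hexamer TATAAA, sought likewise, was in 0 of the 5 and in 13.6% of all. No searched hexamer overlapped a CArG box in these 5 windows. These matches describe the letters of the windows and say nothing of binding.

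Levels are counts per 1e6 counted reads (CPM) normalised with TMM factors, which rescale each library so that most genes keep one level. The fall with induction and the return with the hairpins could be read in the single libraries. Acta2 stood at 1726, 1925 and 1586 CPM in the uninduced libraries, at 722, 571 and 645 in the induced controls, at 1148, 1077 and 973 with the Trim28 hairpin and at 1796, 1447 and 1739 with both hairpins. The uninduced and the double-hairpin libraries of Acta2 overlapped, the Trim28-hairpin libraries lay below both, and the induced controls were lowest. Actg2 stood at 64.2, 76.4 and 74.3 CPM in the uninduced libraries, at 36.2, 30.5 and 31.8 in the induced controls, at 32.0, 31.6 and 31.9 with the Trim28 hairpin and at 68.5, 50.9 and 66.2 with both hairpins. The induced controls and the Trim28-hairpin libraries of Actg2 overlapped at a low level, and the double-hairpin libraries overlapped the uninduced ones.

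Tagln, the transgelin gene, stood at 843, 925 and 887 CPM in the uninduced libraries, at 335, 337 and 338 in the induced controls, at 774, 736 and 650.0 with the Trim28 hairpin and at 1054, 880.4 and 1078 with both hairpins. Cnn1 stood at 75.3, 81.2 and 72.9 CPM in the uninduced libraries, at 38.4, 34.2 and 34.9 in the induced controls, at 103, 96.5 and 75.8 with the Trim28 hairpin and at 143, 113 and 142 with both hairpins. In Cnn1 the double-hairpin libraries lay above every uninduced library, whereas in Tagln one double-hairpin library lay among them. Myh11 stood at 22.8, 30.5 and 24.2 CPM in the uninduced libraries, at 5.49, 5.51 and 3.70 in the induced controls, at 8.88, 7.62 and 8.05 with the Trim28 hairpin and at 17.9, 13.2 and 16.4 with both hairpins. The 4 groups of Myh11 did not overlap, in the order uninduced, both hairpins, Trim28 hairpin, induced control.

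Myl9 ran from 257 to 270.0 CPM in uninduced libraries, 113 to 131 in induced controls, 158 to 191 with the Trim28 hairpin and 202 to 255 with both. Tpm2 ran from 434 to 455 CPM, 231 to 251, 244 to 281 and 335 to 418 in the same order of groups. Des ran from 9.06 to 9.83 CPM, 1.78 to 2.69, 2.54 to 3.73 and 6.01 to 8.12. For Tpm2 and Des the Trim28-hairpin libraries overlapped the induced controls, and for Myl9 they lay between these and the double-hairpin libraries.

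Myocd had few reads, and its values rest on counting. It had 18, 24 and 11 reads in the uninduced libraries, 1, 3 and 1 in the induced controls, 13, 15 and 11 with the Trim28 hairpin and 8, 18 and 11 with both hairpins. In CPM these were 1.12, 1.54 and 0.712, then 0.0584, 0.243 and 0.050, then 0.825, 0.886 and 0.642, then 0.470, 0.975 and 0.642. The induced controls lay below all other libraries, and the other groups overlapped each other. A library's floor of 3 counts corresponded to between 0.156 and 0.252 CPM, so Myocd in the induced controls was at or under the floor in each library.

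**Figure D1:**
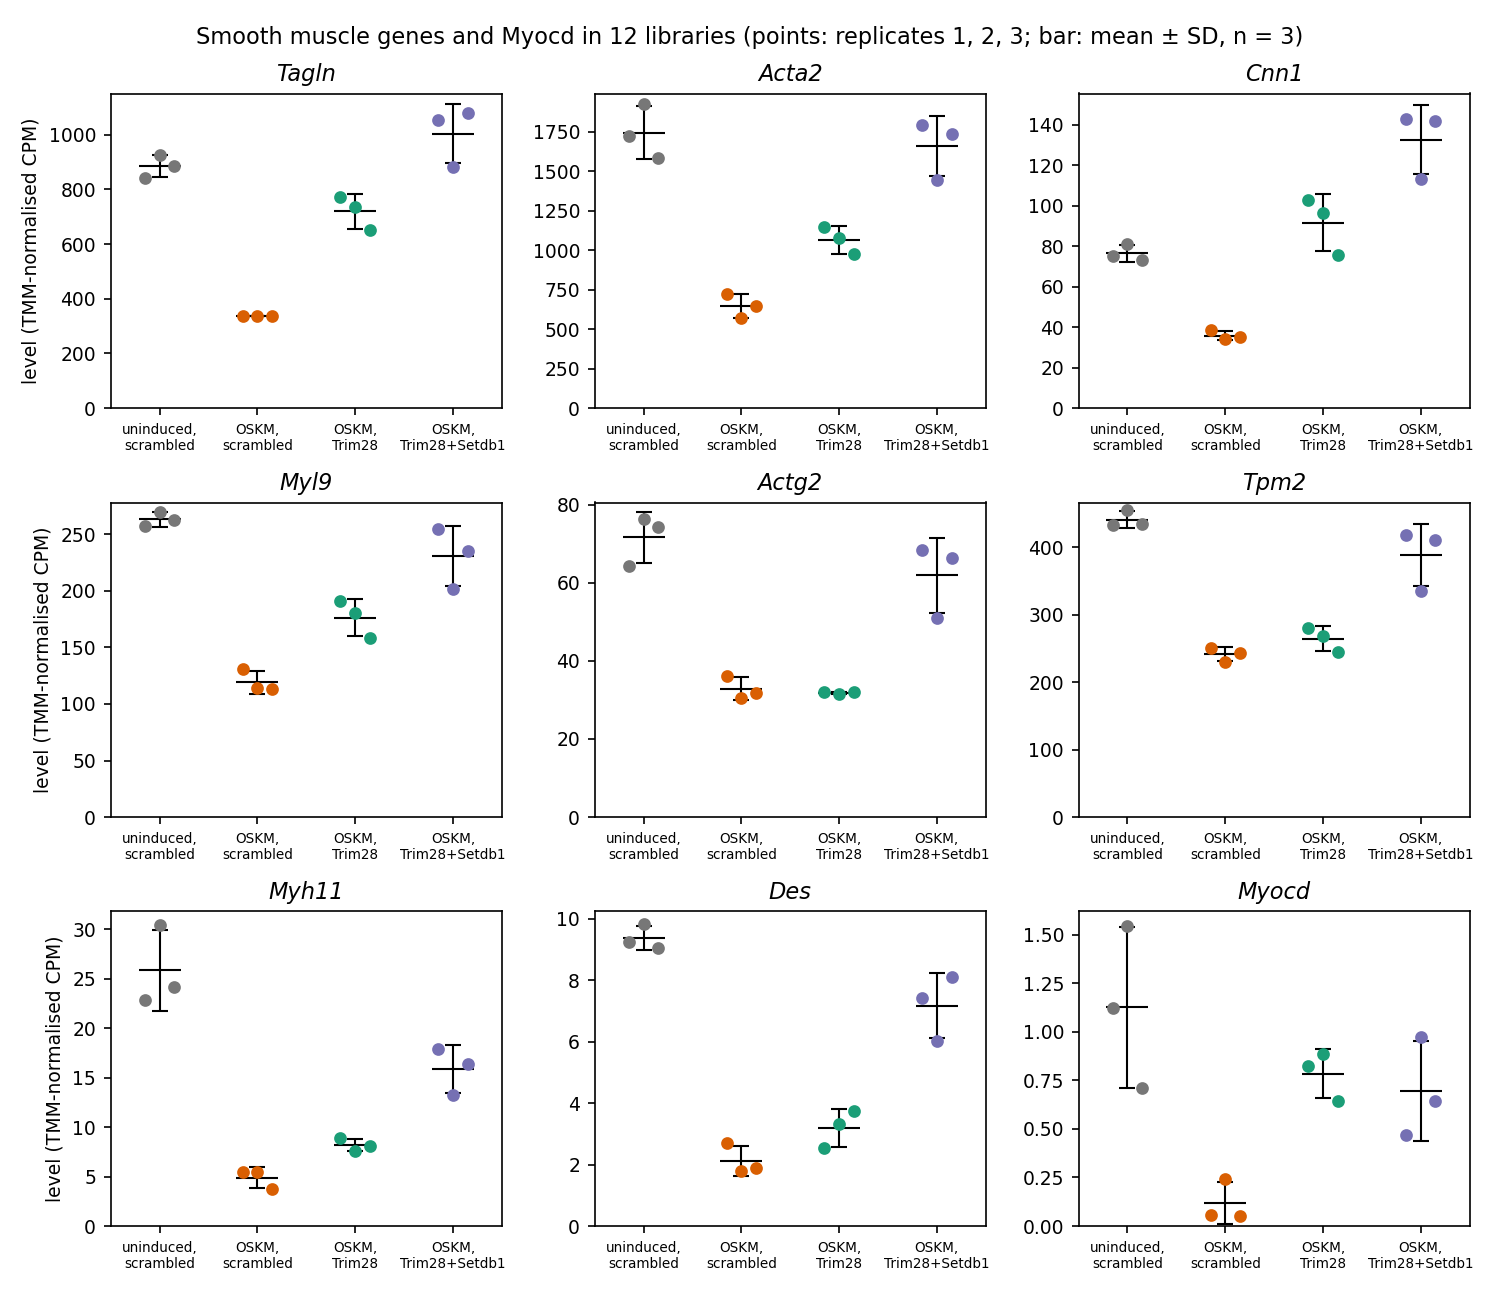
Level of each of the 9 genes in each of the 12 libraries, as TMM-normalised CPM on linear axes that start at 0 (points: replicates 1, 2 and 3 from left to right; horizontal line and error bar: mean ± SD, n = 3). The induced controls are lowest in mean for 8 genes, and for Actg2 their mean of 32.8 CPM is beside one of 31.9 with the Trim28 hairpin.

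The members together took 0.333% ± 0.0222 of all counted reads in uninduced libraries (SD, n = 3), 0.147% ± 0.00939 in the induced controls, 0.241% ± 0.0192 with the Trim28 hairpin and 0.350% ± 0.0384 with both hairpins. Acta2 alone made up 43.1% to 51.0% of the members' reads in each library. Set against exon length (the union of annotated exons, GENCODE M21), Acta2 was highest in uninduced cells at 795 ± 77.6 CPM per kilobase, followed by Tagln at 445 ± 20.5. Myl9 came next at 227 ± 5.54, then Tpm2 at 152 ± 4.23, Actg2 at 46.0 ± 4.18 and Cnn1 at 28 ± 1.56. The lineage-restricted Myh11 (3.40 ± 0.534) and Des (2.50 ± 0.108) stood far lower on this per-length scale, and Myocd lowest at 0.175 ± 0.0646. Actg2 and Cnn1 changed places in this order: Cnn1 stood at 33.5 ± 5.13 CPM per kilobase and Actg2 at 20.5 ± 0.141 with the Trim28 hairpin. With both hairpins they stood at 48.5 ± 6.19 and 39.7 ± 6.16, a difference smaller than the sum of their SDs.

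Counted reads per library ran from 11906701 to 19191649, and 17799 to 19353 genes had a read. Trim28 itself stood at 328 ± 38.3 CPM in induced control libraries (SD, n = 3), at 58.4 ± 5.95 under its own hairpin and at 103 ± 6.40 under both. Setdb1 stood at 81.2 ± 4.26, 122 ± 1.35 and 63.1 ± 8.21 CPM in these groups. In uninduced libraries Trim28 stood at 249 ± 24.8 CPM and Setdb1 at 60.7 ± 4.28. With both hairpins Setdb1 gave no call against uninduced cells (log2 difference 0.06 ± 0.087, SE, edgeR adjusted p = 0.597). Replicates of every group differed by more than counting noise, with a chi-square per degree of freedom of 1.90 to 17.5.

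The first comparison asks how far the contractile set fell when the factors were induced. All 9 genes fell, the myosin, desmin and myocardin genes most. Myh11 in the induced controls was at 19.0% of its uninduced mean, Des at 22.6% and Myocd at 10.4%. Acta2 and Tagln were at 37.0% and 38%, Myl9, Actg2 and Cnn1 at 45.3%, 45.8% and 46.8%, and the tropomyosin gene Tpm2 fell least, to 54.7%. On the log2 scale Myh11 changed by -2.42 ± 0.16 (SE, n = 3 per group, adjusted p = 1.91e-09 from edgeR's quasi-likelihood test), Acta2 by -1.43 ± 0.10 (adjusted p = 4.04e-09) and Tpm2 by -0.87 ± 0.081 (adjusted p = 1e-07). Des changed by -2.13 ± 0.18 and Tagln by -1.39 ± 0.083. Calls were made at an adjusted p under 0.05 throughout, and of all genes tested 32.7% were called lower and 32.7% called higher in this comparison. Higher calls made up 50.0% of all calls, or 61.7% with library totals as the scale, and the 9 members fell under that scale too. The median log2 change was -1.39 over the 9 members and -0.02 over all genes tested. For Myocd the log2 change was -3.38 ± 0.54 (adjusted p = 4.06e-05), on 5 reads against 53, a ratio of 0.0897 with a 95% counting interval of 0.0280 to 0.223. Without replicate 2 of the induced controls, which held 3 of these 5 reads, the Myocd change was -4.20 (adjusted p = 2.18e-05).

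The second comparison asks what a Trim28 hairpin did to the set in induced cells. With that hairpin 6 of the 9 members rose and 3 did not pass the test, where 13.1% of all genes were called higher and 11.8% lower. The actin-binding genes Cnn1 and Tagln rose most among the abundant members, to 256% and 214% of the induced controls. The log2 change of Cnn1 was 1.35 ± 0.11 (SE, n = 3 per group, edgeR adjusted p = 2.97e-07) and that of Tagln 1.1 ± 0.082 (adjusted p = 9.74e-08). Acta2 rose by 0.72 ± 0.10 (adjusted p = 7.27e-05), Myh11 by 0.76 ± 0.18 (adjusted p = 0.00531) and Myl9 by 0.56 ± 0.091 (adjusted p = 0.000225). Myocd rose by 2.86 ± 0.58 (adjusted p = 0.00167), from 5 to 39 reads, a ratio of 7.74 with a 95% counting interval of 3.05 to 25.2. Leaving out induced control replicate 2 gave a Myocd change of 3.68 (adjusted p = 0.000791).

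The other smooth muscle actin and the tropomyosin gene gave no call with the Trim28 hairpin. Actg2 differed by -0.05 ± 0.11 (edgeR adjusted p = 0.805), with a 95% interval of -0.28 to 0.19, and Tpm2 by 0.13 ± 0.081 (adjusted p = 0.269), with an interval of -0.04 to 0.30. Without replicate 1 of the induced controls the Actg2 difference was 0.02 (adjusted p = 0.932). Des differed by 0.58 ± 0.21 (adjusted p = 0.0513, interval 0.14 to 1.02). The Des difference passed the threshold without the low-count filter (adjusted p = 0.0343), without replicate 1 of the induced controls (0.0203) and without replicate 1 of the Trim28-hairpin libraries (0.0307), over a range of 0.0203 to 0.21. The median over the 9 members was 0.72 and over all genes 0.00.

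With both hairpins all 9 members rose against the induced controls, and 18.1% of all genes were called higher and 18.5% lower. Higher calls made up 49.5% of all calls, or 39.3% with library totals as the scale, under which the 9 members rose as well. This comparison shares the induced control libraries with the preceding one, so their values stand side by side and are not independent. Cnn1 reached 370% of the induced controls, Des 338%, Myh11 324% and Tagln 298%. The log2 changes of Cnn1 and Tagln were 1.89 ± 0.11 (SE, n = 3 per group, edgeR adjusted p = 5.43e-09) and 1.58 ± 0.083 (adjusted p = 1.24e-09). Des and Myh11 rose by 1.74 ± 0.19 (adjusted p = 2.85e-06) and 1.71 ± 0.17 (adjusted p = 1.18e-06). The actin gene Acta2 rose by 1.36 ± 0.10 (adjusted p = 7.43e-08), and the smaller rises were those of Myl9 with 0.95 ± 0.091, Actg2 with 0.91 ± 0.11 and Tpm2 with 0.68 ± 0.081. Myocd rose by 2.70 ± 0.59 (adjusted p = 0.00195), from 5 to 37 reads, a ratio of 6.96 with a 95% counting interval of 2.73 to 22.7. Leaving out induced control replicate 2 gave 3.52 (adjusted p = 0.000993). The median over the members was 1.58 and over all genes 0.00.

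The double-hairpin cells were then set directly against the Trim28-hairpin cells, which tests what differed between the single and the double knockdown. Of the 9 members 8 were higher with both hairpins, and Myocd did not pass, where 10% of all genes were called higher and 11.7% lower. The 3 genes without a call for the Trim28 hairpin rose here: Des by 1.16 ± 0.17 (SE, n = 3 per group, edgeR adjusted p = 0.000205), Actg2 by 0.96 ± 0.11 (adjusted p = 1.78e-05) and Tpm2 by 0.55 ± 0.081 (adjusted p = 0.000181). The Trim28-hairpin libraries entered both this comparison and the one that gave these genes no call, so the results are not independent. Myh11 rose by 0.95 ± 0.16 (adjusted p = 0.000448) and Acta2 by 0.64 ± 0.10 (adjusted p = 0.000347). Cnn1 rose by 0.53 ± 0.11, Tagln by 0.48 ± 0.081 and Myl9 by 0.39 ± 0.089 (adjusted p = 0.00201, 0.000561 and 0.00565). Myocd differed by -0.16 ± 0.38 (adjusted p = 0.813), on 37 reads against 39, a ratio of 0.899 with a 95% counting interval of 0.557 to 1.45. Without replicate 1 of the double-hairpin libraries the Myocd difference was 0.06 (adjusted p = 0.951). The median over the members was 0.55 and over all genes 0.00. In these same libraries the log2 difference of Trim28 was 0.82 ± 0.10 and that of Setdb1 was -0.95 ± 0.085, and the part of each was not tested.

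**Figure D2:**
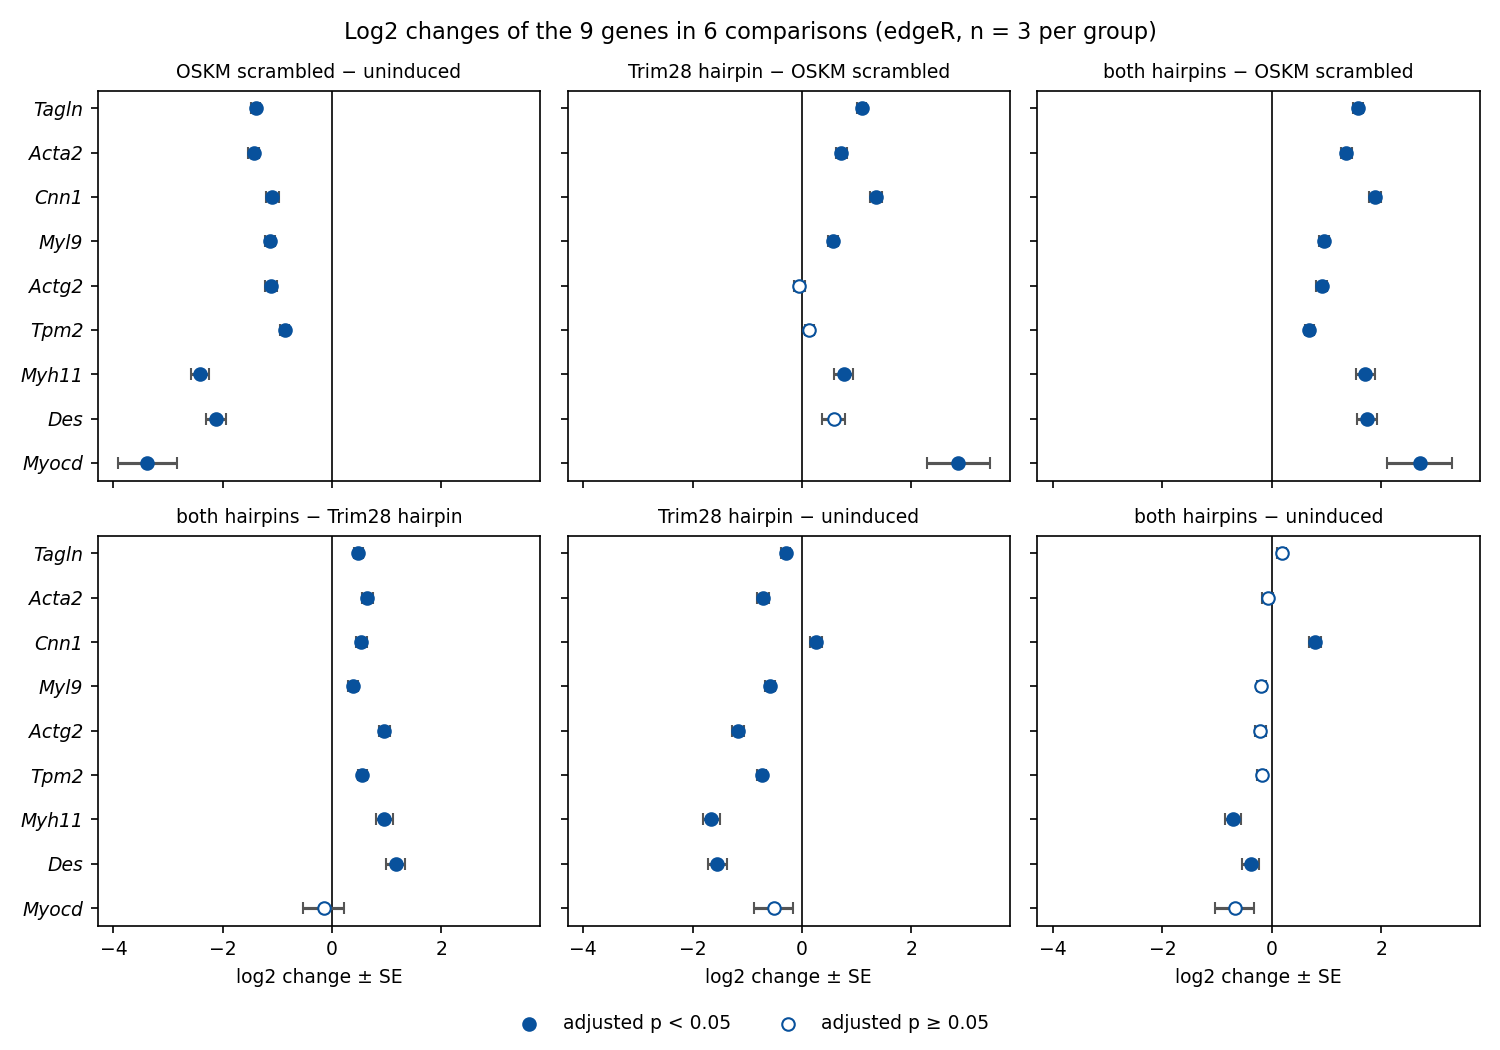
Log2 change of each of the 9 genes in each of 6 comparisons (horizontal axis, point ± SE from the edgeR model, n = 3 per group; filled points: adjusted p under 0.05). Every point lies left of 0 for induction and right of 0 for both hairpins against the induced controls, while Actg2 and Tpm2 lie at -0.05 and 0.13 for the Trim28 hairpin.

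Where the induced cells ended in relation to uninduced fibroblasts differed between the genes. With the Trim28 hairpin 7 of the 9 members were still lower than in uninduced cells, 1 was higher and 1 did not pass, where 32.6% of all genes were called lower and 34.1% higher. Myh11 was at 31.7% of its uninduced mean, Des at 34.1% and Actg2 at 44.5%. The log2 differences of these 3 were -1.66 ± 0.15 (SE, n = 3 per group, edgeR adjusted p = 7.3e-08), -1.55 ± 0.17 (adjusted p = 6.04e-07) and -1.17 ± 0.11 (adjusted p = 6.37e-08). Tpm2, Acta2 and Myl9 were at 60.0%, 61.1% and 67.0%, and Tagln, at 81.3%, was closest with -0.30 ± 0.081 (adjusted p = 0.004), or -0.19 with library totals (adjusted p = 0.0498). Cnn1 was the higher one, at 120% with 0.26 ± 0.11 (adjusted p = 0.0424), and its libraries overlapped those of uninduced cells. The Cnn1 call was lost in 6 of 15 alternatives (adjusted p range 0.00451 to 0.216). These were upper-quartile scaling (0.0912), limma-voom (0.0548), and leaving out uninduced replicate 1 (0.0955) or 3 (0.109) or Trim28-hairpin replicate 1 (0.216) or 2 (0.139). Myocd differed by -0.52 ± 0.35 (adjusted p = 0.203), with a 95% interval of -1.27 to 0.23, on 39 reads against 53, a ratio of 0.695 with a counting interval of 0.447 to 1.07. The median over the members was -0.71 and over all genes -0.01.

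With both hairpins 6 of the 9 members gave no call against uninduced cells. Myh11 and Des were called lower and Cnn1 called higher, where 27.2% of all genes were called lower and 31.6% higher. Myh11 was at 61.4% of its uninduced mean (log2 difference -0.71 ± 0.14, SE, n = 3 per group, edgeR adjusted p = 0.000466) and Cnn1 at 173% (0.79 ± 0.11, adjusted p = 8.97e-06), and neither overlapped the uninduced libraries. Acta2 was at 95.1%, a log2 difference of -0.07 ± 0.10 (adjusted p = 0.559) with a 95% interval of -0.29 to 0.14. Its sign turned to 0.01 with library totals as the scale and without replicate 2 of the double-hairpin libraries, and to 0.0036 without uninduced replicate 2. The intervals of Tagln (0.01 to 0.35), Tpm2 (-0.36 to -0.01) and Myl9 (-0.38 to -0.0020) lay to one side of 0, although their adjusted p of 0.0629, 0.0592 and 0.0766 missed the threshold. Actg2 had an interval of -0.43 to 0.0046 and Myocd one of -1.43 to 0.08. The Myocd reads, 37 against 53, gave a ratio of 0.624 with a 95% counting interval of 0.399 to 0.968, which lies below 1 and leaves out the spread between libraries. The median over the members was -0.19 and over all genes 0.01.

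Several of these differences from uninduced cells lay near the threshold, and single libraries moved the calls. Des, at 76.6% of its uninduced mean (-0.39 ± 0.15, edgeR adjusted p = 0.038), lost its call in 7 of 15 alternatives (range 0.0231 to 0.165). It was lost without uninduced replicate 1 (0.0688), 2 (0.104) or 3 (0.0506), without double-hairpin replicate 1 (0.059) or 2 (0.165), with library totals (0.0933) and with DESeq2 (0.0551). Without double-hairpin replicate 2 Tagln was called higher (0.26, adjusted p = 0.00904) and Myocd lower (-1.01, adjusted p = 0.0496). Without double-hairpin replicate 1 Myl9, Actg2 and Tpm2 were called lower (adjusted p = 0.0265, 0.0367 and 0.0321). Leaving out double-hairpin replicate 3 gave Tpm2 an adjusted p of 0.0434, and leaving out uninduced replicate 1 gave Actg2 0.0385 and uninduced replicate 3 gave Myocd 0.0406.

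**Figure D3:**
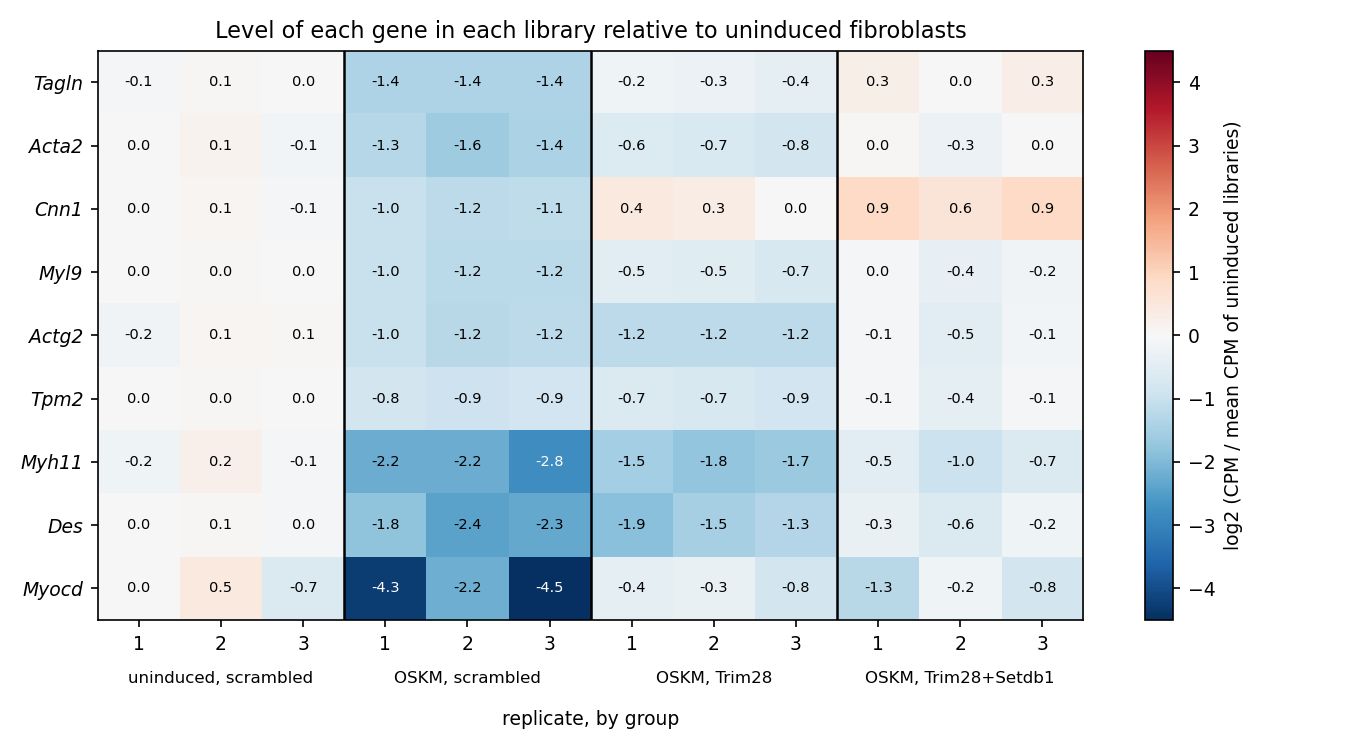
Level of each gene in each library as log2 of CPM over the mean CPM of the uninduced libraries (colour and printed value; rows: genes, columns: replicates by group). Myocd reads -4.3, -2.2 and -4.5 in the induced controls, and Cnn1 is at 0.6 to 0.9 in the double-hairpin libraries while Myh11 is at -1.0 to -0.5.

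Members other than Myocd tended to deviate together between replicates. Double-hairpin replicate 2 was below its group mean for 8 of the 9 members, with Myocd the exception, and uninduced replicate 2 was above its group mean for all 9. Deviations from the group means in log2 CPM, over all 12 libraries, correlated between 0.04 and 0.93 for pairs of members other than Myocd. The 2 highest pairs were Tpm2 with Cnn1 (Pearson r = 0.930) and Myl9 with Cnn1 (r = 0.925). Pairs that include Myocd ran from -0.53 to 0.19. These values describe 12 libraries that share depth and scaling factors within each library. Genes outside the set were not compared in this way, so the shared deviations cannot be called particular to the members.

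Genes outside the set whose pattern over the 12 libraries was most like a member's were sought among 12305 genes whose mean reached 1 CPM, by Pearson r of log2 CPM. The 12 libraries form 4 groups, so a high r reflects a shared order of groups. Fhl2, which encodes a LIM-domain protein that binds actin-linked structures and SRF, was the nearest to both Acta2 (r = 0.995) and Myl9 (r = 0.986). Nearest to Tagln were the membrane-binding annexin gene Anxa2 (r = 0.992) and Csrp1 (r = 0.990), a LIM-domain gene of smooth muscle. The receptor tyrosine kinase gene Axl (r = 0.980) and the actinin gene Actn1 (r = 0.976) were nearest to Cnn1. Actg2 was nearest to the galectin gene Lgals1 and the calmodulin gene Calm2 (both r = 0.977), and Tpm2 to the mitochondrial carrier gene Slc25a4 (r = 0.989) and to Ppp1r18 (r = 0.979). The urokinase gene Plau (r = 0.991) and Srxn1 (r = 0.989) were nearest to Myh11, and Vim (r = 0.988), which encodes the intermediate filament protein of mesenchymal cells, and Meis3 (r = 0.985) to Des. Ak1 was second for Acta2 (r = 0.991) and Dnajb5 for Myl9 (r = 0.983). Myocd had Fbxw2 (r = 0.954) and B4galt5 (r = 0.938), a looser likeness on its few reads.

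Of 37 other smooth muscle contractile genes, 31 passed the filter on low counts. With induction 26 of the 31 fell (83.9%, against 32.7% of all genes), 2 rose and 3 did not pass, with a median log2 change of -0.96. Lmod1, the smooth muscle leiomodin that nucleates actin filaments, fell from 36.5 ± 1.92 to 9.78 ± 0.457 CPM, a log2 change of -1.90 ± 0.098 (SE, n = 3 per group, edgeR adjusted p = 5.83e-11). The focal adhesion gene Vcl and the caveolin gene Cav1 fell by 1.01 and 1.05, and Tns1, a tensin gene, rose by 0.32 ± 0.066. With the Trim28 hairpin 18 of the 31 rose (58.1%, against 13.1% of all genes), 2 fell and 11 did not pass, with a median of 0.29. Lmod1 rose by 1.02 ± 0.10 (adjusted p = 2e-06) and Mrvi1, which encodes a calcium-release regulator, by 1.51 ± 0.18 (adjusted p = 1.1e-05). The 2 that fell were Aoc3, an amine oxidase gene of smooth muscle and fat (-1.55 ± 0.30, adjusted p = 0.00105), and Mylk (-0.94 ± 0.21, adjusted p = 0.00338), singled out after its values were seen. Mylk encodes the kinase that phosphorylates the regulatory light chain, and it went from 18.2 ± 6.64 to 9.56 ± 1.71 CPM. Its induced controls stood at 25.9, 14.2 and 14.5 CPM, and without replicate 1 of them the change was -0.61 (adjusted p = 0.0116).

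With both hairpins 22 of the 31 rose against the induced controls (71.0%, against 18.1% of all genes), 2 fell and 7 did not pass, with a median of 0.51. Mrvi1 rose by 1.86 ± 0.17, Lmod1 by 1.39 ± 0.099 and Filip1l by 0.85 ± 0.10 (SE, n = 3 per group, edgeR adjusted p = 7.08e-07, 3.84e-08 and 8.46e-06). Aoc3 (-1.16 ± 0.28, adjusted p = 0.004) and Mylk (-0.65 ± 0.20, adjusted p = 0.0201) were again the 2 that fell. The Mylk call was lost without induced control replicate 1 (-0.32, adjusted p = 0.123) and without double-hairpin replicate 2 (0.0742) or 3 (0.0673). Against the Trim28 hairpin 8 rose (25.8%, against 10% of all genes), 2 fell and 21 did not pass, with a median of 0.22. Against uninduced cells 18 of the 31 were lower with both hairpins (58.1%, against 27.2% of all genes) and 5 higher (16.1%, against 31.6%). The other 8 did not pass, and the median was -0.27. With the Trim28 hairpin 22 were lower (71.0%, against 32.6%), 4 higher (12.9%, against 34.1%) and 5 did not pass, with a median of -0.48. Synm, an intermediate filament gene, and Pgm5, a dystrophin-associated gene of smooth muscle, were lower with both hairpins by -0.99 ± 0.11 and -1.11 ± 0.12, and Pdlim7 was higher by 0.69 ± 0.10.

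Among 25 regulators of the SRF and myocardin pathway, 22 passed the filter on low counts. With induction 16 fell (72.7%, against 32.7% of all genes), 3 rose and 3 did not pass (median -0.38). Among those that rose was Klf4, itself an induced factor whose count can hold reads of the vector. With both hairpins 9 rose against the induced controls (40.9%, against 18.1%), 4 fell, Klf4 among them (18.2%, beside 18.5%), and 9 did not pass (median 0.22). Under the Trim28 hairpin 5 rose (22.7%, against 13.1% of all genes), 3 fell (13.6%, near the 11.8% of all genes) and 14 did not pass (median 0.04). Between the hairpin groups 8 were higher with both (36.4%, against 10% of all genes) and 1 lower (4.55%, against 11.7%). The other 13 were not called, and the median was 0.21. Fhl2 fell by 1.1 on the log2 scale with induction and rose by 0.60 ± 0.087 with the Trim28 hairpin and 1.05 ± 0.087 with both (SE, n = 3 per group, edgeR adjusted p = 1.35e-08, 9.85e-05 and 1.9e-07). Csrp2, a LIM-domain gene of smooth muscle, fell with the Trim28 hairpin (-0.79 ± 0.099, adjusted p = 2.02e-05). Against uninduced cells 11 regulators were lower with the Trim28 hairpin (50%, against 32.6% of all genes) and 2 higher (9.09%, against 34.1%), with a median of -0.32. With both hairpins 8 were lower (36.4%, against 27.2%) and 3 higher (13.6%, against 31.6%), with a median of -0.09. Mef2c, a muscle transcription factor gene, was lower by -1.59 ± 0.15 and -1.35 ± 0.14 in these 2 comparisons.

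Srf and the myocardin relatives Mkl1 and Mkl2 were looked at after their values were seen, since Myocd itself had few reads. Srf stood at 67.7 ± 12.8 CPM in uninduced cells, 53.1 ± 9.28 in the induced controls, 61.3 ± 2.52 with the Trim28 hairpin and 70.7 ± 2.73 with both hairpins (SD, n = 3). It fell with induction (log2 change -0.34 ± 0.13, edgeR adjusted p = 0.0248) and rose with both hairpins (0.41 ± 0.13, adjusted p = 0.0186), and the Trim28 hairpin gave no call (0.20 ± 0.13, adjusted p = 0.277). Its libraries overlapped between uninduced cells (76.1, 74.1 and 52.9 CPM) and induced controls (60.5, 42.7 and 56.1). Without induced control replicate 2 neither Srf call held, at -0.21 with induction (adjusted p = 0.112) and 0.27 with both hairpins (0.0783). The induction call was also lost without uninduced replicate 1 (0.123) or 2 (0.102), with library totals (0.145) and in the fit of only these 2 groups (0.103), and the other call without double-hairpin replicate 1 (0.058) or 3 (0.0574). Mkl1 stood at 73.4 ± 14.5, 48.7 ± 11.6, 59.3 ± 2.98 and 68.8 ± 6.78 CPM in the same order. The changes of Mkl1 were -0.58 ± 0.15 with induction (adjusted p = 0.00276), 0.28 ± 0.15 with the Trim28 hairpin (0.204) and 0.49 ± 0.15 with both (0.0178). The last of these Mkl1 calls was lost without induced control replicate 2 (0.32, adjusted p = 0.0684) or 3 (0.0502) and without double-hairpin replicate 1 (0.0768), and the Trim28-hairpin change passed without induced control replicate 1 (0.44, adjusted p = 0.0393) and with no low-count filter (0.0154). Mkl2 differed by 0.02 ± 0.075, 0.03 ± 0.075 and -0.10 ± 0.075 in these comparisons (adjusted p = 0.849, 0.792 and 0.334), and the sign of the first turned to -0.016 without uninduced replicate 3 and that of the second to -0.00024 without induced control replicate 3. Klf4, whose count can hold reads of the vector as well as of the cells' own gene, stood at 130.0 ± 9.82 CPM in uninduced cells, 461 ± 49.8 in the induced controls, 488 ± 39.7 with the Trim28 hairpin and 318 ± 36.8 with both. It was lower with both hairpins than in the induced controls by -0.54 ± 0.096 (adjusted p = 0.000396) and gave no call for the Trim28 hairpin (0.08 ± 0.096, adjusted p = 0.593, and -0.013 without induced control replicate 2). The differences of Pou5f1, Sox2 and Myc with both hairpins were -0.41 ± 0.11, -0.54 ± 0.17 and -0.42 ± 0.11 (adjusted p = 0.00916, 0.0237 and 0.00647). The Sox2 call was lost with DESeq2 (0.0758), without induced control replicate 1 (0.0503) or 3 (0.101) and without double-hairpin replicate 1 (0.116) or 3 (0.0515), the Pou5f1 difference was -0.27 without double-hairpin replicate 1 (0.0473), and the part of factor levels in the members' rise was not tested.

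Nonmuscle counterparts of the members moved less uniformly. Of 15 nonmuscle paralogs 7 fell (46.7%), 6 rose (40%) and 2 did not pass with induction (median -0.11), beside 32.7% of all genes in each direction. With both hairpins 9 rose (60%, against 18.1% of all genes), 2 fell and 4 did not pass (median 0.46). For the Trim28 hairpin 6 rose (40%, against 13.1%), 2 fell (13.3%, near 11.8%) and 7 did not pass (median 0.05). The nonmuscle calponin gene Cnn2 followed Cnn1 in direction, with -0.73 ± 0.078, 0.42 ± 0.078 and 0.88 ± 0.078 for induction, the Trim28 hairpin and both (SE, n = 3 per group, edgeR adjusted p = 4.89e-07, 0.000866 and 4.08e-07). Myh14, a nonmuscle myosin heavy chain gene of epithelia, went the other way from Myh11, with 6.97 ± 0.20, -0.34 ± 0.10 and -1.24 ± 0.10 (adjusted p = 2.86e-14, 0.021 and 2.22e-07). Its Trim28-hairpin call was lost without induced control replicate 3 (0.0933) and without Trim28-hairpin replicate 1 (0.0702) or 3 (0.0653). Vim, the mesenchymal counterpart of Des, rose by 0.72 ± 0.075 with both hairpins.

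**Figure D4:**
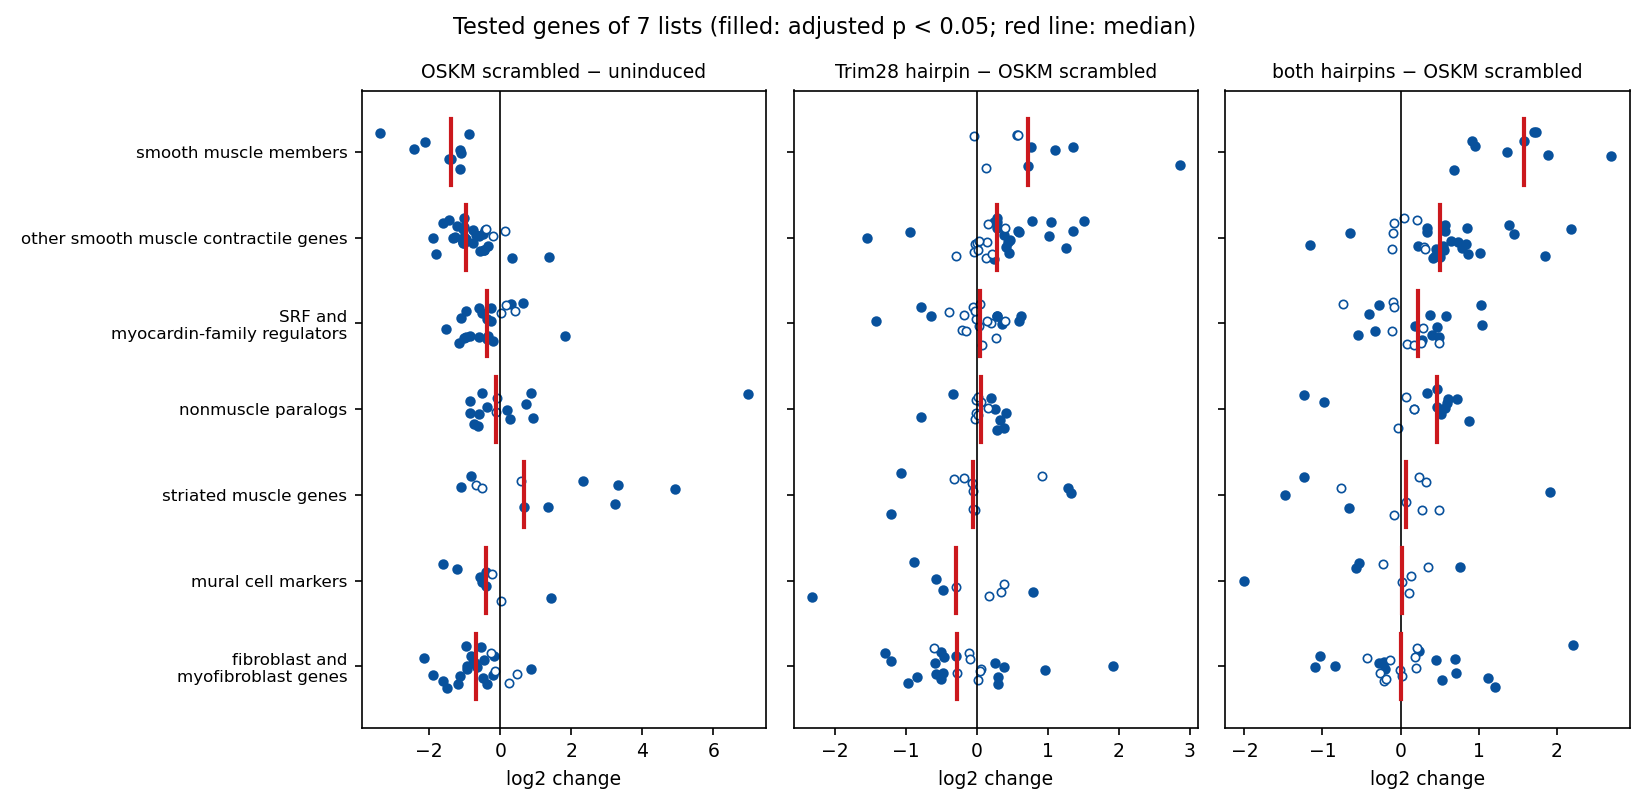
Log2 change of the tested genes of 7 lists in 3 comparisons (horizontal axis; one point per gene; filled: adjusted p under 0.05; red line: median). The smooth muscle members and the other contractile genes have medians of -1.39 and -0.96 for induction and of 1.58 and 0.51 for both hairpins. For induction and both hairpins, nonmuscle paralogs have medians of -0.11 and 0.46, the regulators -0.38 and 0.22, and striated muscle genes 0.66 and 0.07. The mural and fibroblast lists have medians of -0.39 and -0.68 for induction and of 0.01 and 0.00 for both hairpins.

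Markers of other cells that the cultures could hold were read beside these changes. The 10 epithelial markers rose with induction in 10 of 10 cases, where 32.7% of all genes were called higher. Their summed level ran from 55.4 to 59.6 CPM in uninduced libraries, 2546 to 3129 in induced controls, 2511 to 2804 with the Trim28 hairpin and 1401 to 1775 with both hairpins. With both hairpins 10 of 10 fell against the induced controls (median -0.86), where 18.5% of all genes were called lower. The lead was Krt18 with -1.64 ± 0.13 (SE, n = 3 per group, edgeR adjusted p = 9.26e-08). With the Trim28 hairpin 4 of 10 fell (40%, against 11.8% of all genes), among them Krt19 with -0.46 ± 0.11 (adjusted p = 0.00632). The other 6 did not pass, the median of the 10 was -0.18, and the summed ranges overlapped those of the induced controls. The part of the epithelial share of the cultures in the members' levels was not tested.

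Of 24 fibroblast and myofibroblast genes 19 fell (79.2%, against 32.7% of all genes), 1 rose and 4 did not pass with induction (median -0.68). With the Trim28 hairpin 11 fell (45.8%, against 11.8%), 6 rose (25%, against 13.1%) and 7 did not pass (median -0.28). With both hairpins 8 rose (33.3%, against 18.1%), 6 fell (25%, against 18.5%) and 10 did not pass (median 0.00). Col3a1, a fibrillar collagen gene, fell by 1.30 on the log2 scale with the Trim28 hairpin (n = 3 per group, edgeR adjusted p = 1.75e-06). The summed level of 7 fibroblast markers ran from 25158 to 29566 CPM in uninduced libraries, 16679.9 to 24078 in induced controls, 14592 to 16069.6 with the Trim28 hairpin and 19727 to 22459 with both hairpins. That sum was lower with the Trim28 hairpin than in any induced control library. Of its 7 genes 5 were called lower (71.4%, against 11.8% of all genes) and 2 higher (28.6%, against 13.1%). The collagen genes Col1a1, Col1a2 and Col3a1 made up most of it, with means of 7249.6, 5878 and 3769 CPM in the induced controls and 5138, 4799.95 and 1532 with the Trim28 hairpin. The 2 higher ones were Vim, at 2718 and 3242 CPM (log2 change 0.25 ± 0.075, adjusted p = 0.0199), and Thy1, at 147 and 175 (0.26 ± 0.082, adjusted p = 0.03). The Vim call was lost on leaving out induced control replicate 2 (0.0759) or 3 (0.0781) or Trim28-hairpin replicate 1 (0.0725), 2 (0.0594) or 3 (0.0648). The Thy1 call was lost with upper-quartile scaling (0.056), in the fit of only these 2 groups (0.052), and without induced control replicate 2 (0.0995) or 3 (0.0991) or Trim28-hairpin replicate 1 (0.171) or 3 (0.0824). Against the Trim28 hairpin 15 of the 24 genes were higher with both hairpins (62.5%, against 10% of all genes), 0 were lower and 9 did not pass (median 0.29), led by Ctgf with 0.92 ± 0.070 (SE, edgeR adjusted p = 5.05e-07). The part of fibroblast content in the members' levels was not tested.

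Mural cells, the smooth muscle and pericyte cells of vessel walls, could also carry the set. Of 9 mural markers that passed the filter 6 fell (66.7%, against 32.7% of all genes), 1 rose and 2 did not pass with induction (median -0.39), among them the pericyte genes Pdgfrb (-1.22 ± 0.13) and Rgs5 (-1.60 ± 0.21). With the Trim28 hairpin 4 fell (44.4%, against 11.8%), 1 rose and 4 did not pass (median -0.29), and with both hairpins 3 fell (33.3%, against 18.5%), 1 rose and 5 did not pass (median 0.01). The one that rose in both was the adhesion gene Mcam, with 0.79 ± 0.080 and 0.76 ± 0.080 (SE, n = 3 per group, edgeR adjusted p = 2.47e-06 and 2.41e-06). The summed level of the 11 mural markers in the table ran from 573 to 654 CPM in uninduced libraries, 318 to 423 in induced controls, 343 to 379 with the Trim28 hairpin and 370.2 to 395 with both, and all 11 had a read in each group. The ranges of the induced groups overlapped. The part of mural cells in the members' levels was not tested.

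Striated muscle genes were mostly too low to test, with 11 of 31 in the table passing the filter. With induction 6 rose (54.5%, against 32.7% of all genes), 2 fell (18.2%, against 32.7%) and 3 did not pass (median 0.66). With the Trim28 hairpin 2 rose, 2 fell and 7 did not pass (median -0.06), and with both hairpins 1 rose, 3 fell and 7 did not pass (median 0.07). For the Trim28 hairpin these were 18.2% in each direction beside 13.1% and 11.8% of all genes, and for both hairpins 9.09% and 27.3% beside 18.1% and 18.5%, shares that 1 or 2 genes separate from the background. Acta1, the skeletal muscle actin gene, was the one that rose with both hairpins, by 1.91 ± 0.15 (SE, n = 3 per group, edgeR adjusted p = 9.26e-08), from 10.8 ± 2.32 to 40.8 ± 5.04 CPM. As a near-identical paralog of Acta2 it may hold reads of that gene, which these counts cannot show. Tnnt2, the cardiac troponin T gene, rose with the Trim28 hairpin (1.32 ± 0.21, adjusted p = 0.000187), and Mylpf, a fast skeletal light chain gene, fell with both (-1.24 ± 0.21, adjusted p = 0.000307). The summed level of 7 skeletal muscle markers ran from 17.3 to 23.8 CPM in uninduced libraries and 14.0 to 17.6 in induced controls. It ran from 30.2 to 31.8 with the Trim28 hairpin and 40.0 to 48.9 with both hairpins. Acta1 is one of these 7 and made up most of the sum. Mylpf went from 3.65 ± 0.934 CPM in induced controls to 1.56 ± 0.135 with both hairpins. The summed level of 5 cardiac markers ran from 0.374 to 1.61 CPM in uninduced libraries and 8.30 to 14.1 in induced controls. It ran from 15.7 to 23.5 with the Trim28 hairpin, above both other induced groups, and from 9.0 to 10.9 with both hairpins. Tnnt2 made up most of the sum with the Trim28 hairpin, at 18.0 ± 3.76 CPM beside 7.19 ± 1.57 in induced controls. Myl7, the only other cardiac marker tested, went the other way, from 4.01 ± 1.42 in induced controls to 1.93 ± 0.532 CPM. Its log2 change was -1.07 ± 0.29 (edgeR adjusted p = 0.0132). Endothelial markers (3 genes) summed to 2.25 to 4.87 CPM and macrophage markers (3 genes) to 1.02 to 3.16 over all 12 libraries.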

How the data were processed

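The deposited table held 12 libraries of raw counts over 24207 genes, as whole numbers, and every value here was computed from these counts. Per the submitters' processing notes, reads went through TopHat2 2.0.12, Bowtie 1.1 and HTSeq; neither a genome build nor the use of strand in counting is given in the sources used. Of the 24207 identifiers, 23882 were found in GENCODE M21 and 23856 of these at an overlapping place. Groups and replicate numbers came from the sample titles. Tests were edgeR (4.0.16, R 4.3.3) quasi-likelihood F-tests with TMM scaling and 1 term per group over the 12 libraries, after its filterByExpr step (at least 10 reads in enough libraries, at least 15 in total). P-values were adjusted by Benjamini-Hochberg over all 14520 genes tested. Intervals are 95% intervals of the model, and Myocd ratios have exact counting intervals that cover counting error alone, as reads counted without molecular identifiers are not separate molecules. The fit was tested on simulated data. Alternatives used DESeq2 1.42.0 and limma 3.58.1, other scalings and filters, a replicate block, and each library left out in turn. Same-numbered libraries of the induced controls and the double-hairpin cells deviated together from their group means (r = 0.31, 0.14 and 0.19). In the other comparisons not every same-numbered pair reached 0.1. The highest r between libraries of different groups, 0.39, joined different numbers (uninduced replicate 3 and induced control replicate 2). These values therefore do not establish a pairing, the labels give none, and the main fit had no block. The genes and lists were chosen with earlier results of these data known. From each list the text could name up to 3 genes by smallest p among those moving as most did, and 1 moving against them, and for likeness the 2 nearest genes of each member. Genes outside this rule are said to be so.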

Additional observations from a re-analysis of the deposited data

How the results depend on the processing

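Over the alternatives run, the 9 members kept their fall with induction, their rise with both hairpins against the induced controls, and 8 of them their rise against the Trim28 hairpin, as did the 6 that rose with the Trim28 hairpin. The exceptions are Myocd under a minimum count of 30 and, for both hairpins against the induced controls, in the fit of only the 2 groups compared, where it did not pass the filter. Of the members' results under alternatives, 772 kept direction and call, 13 lost the call, 21 gained one and 5 changed sign. Changes of sign occurred in differences that had no call: Actg2 for the Trim28 hairpin (-0.10 to 0.018 with each library left out), Myocd between the hairpin groups (-0.49 to 0.055) and Acta2 with both hairpins against uninduced cells (-0.14 to 0.014, and 0.0068 with library totals). With each library left out, Mkl2 ran from -0.016 to 0.047 for induction and from -0.00024 to 0.043 for the Trim28 hairpin, and Klf4 from -0.013 to 0.14 for the latter. Genes called between the hairpin groups numbered 3154, and 4849 in the fit of only these 2 groups. With each library left out they numbered 1829 to 2843: 1829 and 2063 without Trim28-hairpin replicates 2 and 3, and 1853 without double-hairpin replicate 1. Of members higher with the Trim28 hairpin than in uninduced cells (1), 0 remained with upper-quartile factors or limma-voom, and 0 to 1 with a library left out. Members lower with both hairpins than in uninduced cells (2) numbered 4 with upper-quartile factors, 1 with library totals, 5 with no low-count filter, 1 with DESeq2 and 1 to 4 with a library left out. Members higher there (1) numbered 2 with library totals, 2 with no filter and 1 to 2 with a library left out. The replicate block gave 4 members lower there, Myl9 and Tpm2 added (adjusted p = 0.0458 and 0.0467), and changed no other call of a member. For both hairpins against the induced controls, a block by replicate number over only these 6 libraries was chosen after seeing the data. It gave 5912 genes called beside 5322 and kept the rise of the 8 members tested, Myocd not passing its filter. In the other comparisons not every same-number pair correlated above 0.1 (6 of 18 pairs in all, -0.22 to 0.31). Library totals moved the median log2 change of all genes from -0.02 to 0.11 for induction and from -0.01 to 0.10 for the Trim28 hairpin against uninduced cells. The cause of these shifts was not tested. Depth limits Myocd most, with 5 to 53 reads per group.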
